A study of Mus musculus with 12 samples.

Results

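Gene expression was compared between the livers of mice given acrylamide at 0.7 mM and those of untreated mice, over 6 of the 12 arrays of the series. The 3 arrays titled liver at 0.7 mM (numbered 27, 29 and 30) formed the acrylamide group and the 3 titled liver at 0 mM (numbered 1, 3 and 4) the controls. All mice were female and of the strain B6C3F1/Nctr, and nothing in the labels points to any other allele or agent in either group. No source used here gives the route or length of exposure, the age or feeding of the mice, or the hour at which tissue was taken. Nothing says that the arrays of a group come from separate mice, so p-values measure only the spread between these arrays, which may be technical. The other 6 arrays carry lung titles, although the tissue entry of all 12 says liver, and serve only for the test of a difference between tissues and for the levels of lung transcripts. Hepatocyte genes were high on all 6 liver arrays, with Alb, the albumin gene, at 9.13 to 10.08. Levels are log2 Cy3 intensity minus the array's 75th percentile over non-control spots, so that a level of 0 is that percentile, and each gene is read from its brightest spot.

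Acrylamide is a small reactive amide formed in heated starchy food and used to make polymers. In the liver, the cytochrome Cyp2e1 oxidises it to the epoxide glycidamide, which can bind DNA and protein, while glutathione transferases and epoxide hydrolase remove both compounds. Liver is also a tissue with a strong circadian rhythm: Clock and Arntl drive genes through E-box sequences, the PAR bZIP factors Dbp, Tef and Hlf drive genes through D-box sequences, Nfil3 represses at D-boxes, and the receptors Nr1d1 and Nr1d2 repress and Rora drives Arntl and Nfil3.

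The arrays were not of equal quality. Acrylamide 30 was dim, with a 75th percentile of 329.5 intensity units against 480.4 to 704.6 on the other liver arrays. Its background limit, set at the 95th percentile of negative controls, was 16.8 against 2.501 to 4.45, and 33972 of its 59305 non-control spots lay above the limit against 45538 to 47322. In the dimmest decile of the tested genes its median level was 0.98 log2 units above the control mean, against -0.21 and -0.10 on acrylamide 27 and 29. Acrylamide 27 and 29 resembled each other most (Spearman's rho = 0.991 across 21169 genes), and every pair with acrylamide 30 was the least alike (0.973 to 0.977, genes not being independent). Over 16110 genes above background on all 6 arrays, the deviations of acrylamide 27 and 29 from the control mean, which they share, had r = 0.73, whereas those of acrylamide 30 had r = 0.02 and 0.10 with them. Acrylamide 30 alone stood more than 1 log2 unit above the other 5 arrays for 320 of these genes, against 9 to 34 for any other array. On any 1 array, spots printed in 10 copies had a median SD of 0.04 to 0.06 log2 units.

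Lung transcripts were present on 2 of the acrylamide arrays. Sftpc, which encodes a surfactant protein made by alveolar type 2 cells, read 2.44 on acrylamide 27, -0.83 on acrylamide 29 and -5.76 on acrylamide 30, where it was not above background. The controls 1, 3 and 4 read -7.62, -6.00 and -6.31, the first of them not above background. Against the mean of the 3 lung controls, after the same scaling, Sftpc reached 1.59% on acrylamide 27 and 0.163% on acrylamide 29. Scgb1a1, the club cell secretory protein gene, reached 1.702% and 0.818% on these arrays and 0.0224% to 0.0482% on the other 4. Cbr2, a carbonyl reductase of club cells, reached 0.649% and 0.310%, and Scgb3a2, another secretoglobin, 0.327% and 0.307%, against at most 0.0383% and 0.0470% elsewhere on the liver arrays. Of 41 markers at least 64-fold higher in lung, 36 were above background on each of acrylamide 27 and 29, 31 to 32 on each control and 12 on acrylamide 30. The summed linear level of the alveolar type 2 list did not separate the groups (59.9 to 70.9 on acrylamide arrays, 59.1 to 67.7 on controls). It includes members that all liver arrays carry, such as Lamp3, which read 2.78 to 3.36 on them against at most 2.44 for Sftpc. The sum therefore cannot show whether the lung transcripts above were raised. The part of lung RNA in the differences below was not tested beyond leaving out genes at least 4-fold higher in lung, which among the 12 highest and 12 lowest named genes are Per3, Csrnp1, Clec1a, S100a9 and Col1a1.

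**Figure D1:**
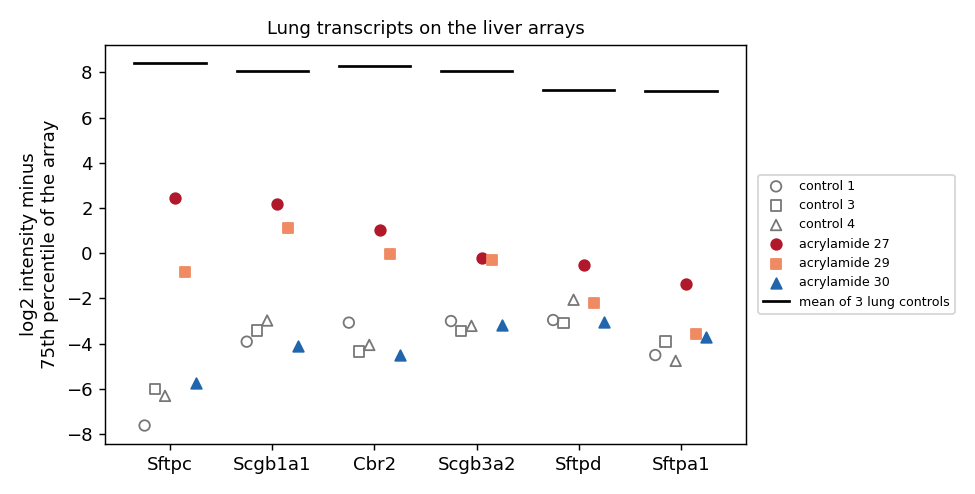
Levels of 6 lung transcripts on the 6 liver arrays (points) and the mean of the 3 lung controls (black bars), as log2 intensity minus the array's 75th percentile. For Sftpc, Scgb1a1, Cbr2 and Scgb3a2, acrylamide 27 and 29 lie above the controls, while acrylamide 30 lies among them or close by.

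No gene passed the test between acrylamide and control. Limma called 0 of 21169 genes (0%) at an adjusted p under 0.05, the lowest adjusted p being 0.470, and 1272 genes had an unadjusted p under 0.05. Of these, 355 were at least 1.5-fold higher (1.68% of the genes tested) and 416 at least 1.5-fold lower (1.97%). All 3 acrylamide arrays lay above all 3 controls for 1205 genes (5.69%) and below them for 1413 genes (6.67%). The median difference over all genes was -0.02 log2 units, and 47.1% of genes were higher. Without acrylamide 30, genes with an unadjusted p under 0.05 and 1.5-fold numbered 1893 in place of 771, of which 37.7% rather than 46.0% were higher. Quantile scaling gave 758 such genes, of which 33.1% were higher. Leaving out the genes at least 4-fold higher in lung left 583 of 18312. Every difference named below is therefore a description of these 6 arrays, given as the acrylamide mean minus the control mean in log2 units with its standard error (SE, n = 3 per group).

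Several clock output genes differed on all 3 acrylamide arrays. Dbp, a D-box activator whose own transcription the clock drives, read 0.00, 0.24 and 0.08 on controls 1, 3 and 4 but 3.00, 2.19 and 2.16 with acrylamide (arrays 27, 29 and 30, the order used from here on). The difference between the groups was 2.34 ± 0.26, or 5.07-fold (adjusted p = 0.470), with an SD of 0.12 in controls and 0.48 with acrylamide. A second Dbp spot gave 2.304, again without overlap. Per3, a period gene, read -3.15, -3.54 and -3.72 with acrylamide against -5.11, -5.09 and -4.51, a difference of 1.44 ± 0.24 (adjusted p = 0.654). Its mean level lay 2.77 log2 units over the background limit, and its other spot, above background on 2 arrays, gave 1.08 with overlap. Tef, a relative of Dbp, read 4.74, 4.49 and 4.998 against 3.84, 4.27 and 4.17, and was higher by 0.65 ± 0.20. Of its other spots, 1 gave 0.998 without overlap and 1, not above background on every array, 0.86 with overlap. Nr1d2, a receptor that represses Arntl, read 2.06, 1.83 and 2.04 against 1.16, 1.703 and 0.37, higher by 0.90 ± 0.34, and both of its other spots gave 1.38 without overlap. Nr1d1 was higher by 0.75 ± 0.42 without overlap, the distance resting mostly on control 4, which read -2.31 against -0.86 and -0.88. Bhlhe40, a repressor acting at E-boxes, was higher by 0.93 ± 0.37 with overlapping groups.

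Other members were lower. Nfil3, the repressor at D-boxes, read 2.42, 2.68 and 2.25 with acrylamide against 3.43, 3.40 and 3.71, lower by 1.06 ± 0.18 (log2 difference -1.06, adjusted p = 0.654), and its second spot gave -1.03 without overlap. Cry1, a cryptochrome that represses Clock and Arntl, read -3.29, -3.31 and -4.04 against -2.63, -2.98 and -2.57, a difference of -0.82 ± 0.25, and its second spot gave -0.64 with overlap. Arntl itself differed by -0.53 ± 0.30 with overlapping groups on its brightest spot, and by -1.05 and -0.83 without overlap on its other 2 spots. Clock differed by -0.32 ± 0.16 without overlap, and its other spots above background on all 6 arrays gave -0.50 without and -0.19 with overlap. Per1 did not separate, since control 3 read 3.15 and control 1 read -0.55, with acrylamide arrays between them at 1.13 to 2.25 (0.48 ± 0.92). The remaining members described here overlapped on their brightest spot: Hlf differed by 0.23, Ciart and Per2 by 0.06, Usp2 by -0.05, Cry2 by -0.09, Csnk1d by -0.12, Npas2 by -0.13, Rora by -0.23 and Csnk1e by -0.45. Usp2 and Csnk1d each had another spot above background on all 6 arrays without overlap, at 0.94 and 0.75, so their spots disagreed. Of the 22 clock genes tested, 5 were higher and 3 lower without overlap (5.69% and 6.67% of all genes were), and 5 and 2 reached an unadjusted p under 0.05 with 1.5-fold (1.68% and 1.97% of all genes did). The list median was 0.00 log2 units, against -0.02 over all genes.

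**Figure D2:**
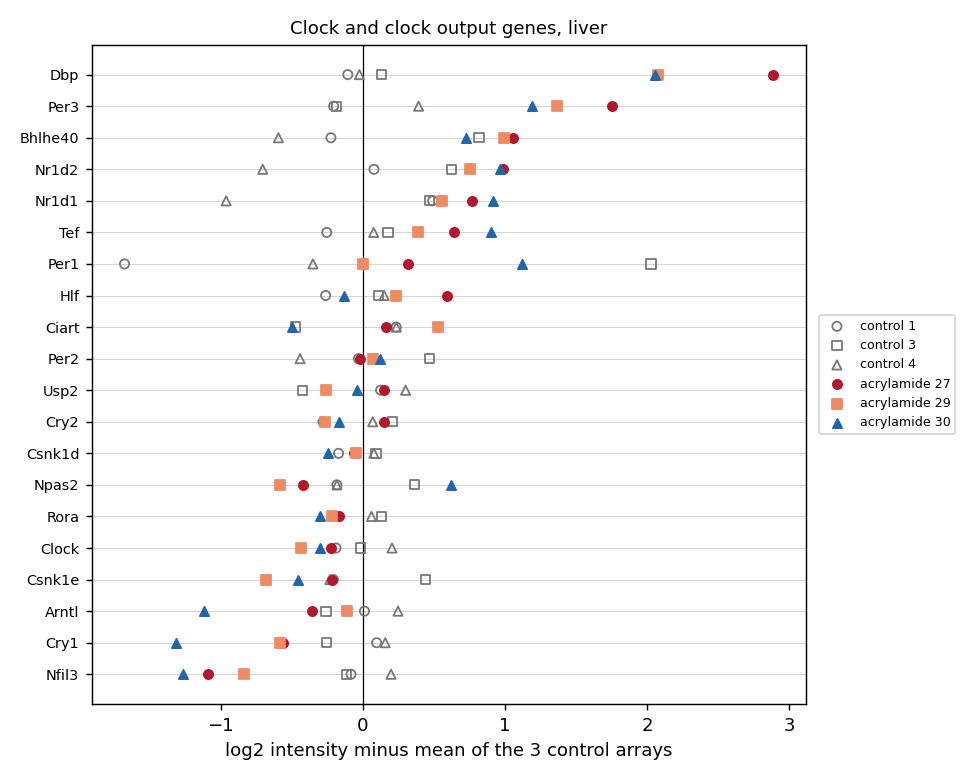
Levels of 20 clock and clock output genes on each liver array, as log2 intensity minus the mean of the 3 control arrays, ordered by the difference between groups. Open grey symbols are controls and filled symbols acrylamide arrays; Dbp, Per3, Tef and Nr1d2 lie to the right of all controls and Nfil3, Cry1 and Clock to the left.

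The promoters of 3 of these genes are shown because they carry the sequences through which clock factors act. They are the 250 bases before the transcription start in the RefSeq table of build GRCm38.p6, written 5′ to 3′ along the gene, and the capitals mark a D-box match (TTATGTAA or its reverse complement) in Per3 and an E-box match (CACGTG) in Tef and Cry1.
Per3, chr4:151044666-151044915, minus strand: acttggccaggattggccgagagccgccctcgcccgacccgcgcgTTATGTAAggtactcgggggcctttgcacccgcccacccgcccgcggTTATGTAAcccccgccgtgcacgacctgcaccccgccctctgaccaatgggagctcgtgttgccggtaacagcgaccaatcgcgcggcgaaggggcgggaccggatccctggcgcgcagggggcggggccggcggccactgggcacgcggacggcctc
Tef, chr15:81802423-81802672, plus strand: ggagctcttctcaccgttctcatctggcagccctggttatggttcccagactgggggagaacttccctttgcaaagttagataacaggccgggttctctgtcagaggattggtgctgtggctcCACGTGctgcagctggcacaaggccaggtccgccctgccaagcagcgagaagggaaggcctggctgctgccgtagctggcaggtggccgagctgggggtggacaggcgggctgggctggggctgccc
Cry1, chr10:85185055-85185304, minus strand: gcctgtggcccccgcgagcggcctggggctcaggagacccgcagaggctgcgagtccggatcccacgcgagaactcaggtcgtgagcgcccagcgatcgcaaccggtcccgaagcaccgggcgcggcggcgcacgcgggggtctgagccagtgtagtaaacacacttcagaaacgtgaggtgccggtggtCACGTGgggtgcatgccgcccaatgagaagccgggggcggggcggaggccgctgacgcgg
Per3 held 2 D-box matches, starting 205 and 158 bases before the start, Tef 1 E-box match at 127 bases and Cry1 1 at 60 bases. Searched on both strands, the D-box letters were in 0.819% of 32851 promoters of this length and in Per3 alone among the 17 clock genes with an entry. The E-box letters were in 6.02% of all promoters and in those of Ciart, Cry1, Per1 and Tef. A match is a string of letters, and binding was not measured here. Tef and Cry1, which both carry the E-box letters, differed in opposite directions.

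Some of these genes differed the same way in lung: Dbp by 1.56 ± 0.38, Nr1d2 by 0.99 ± 0.32, Cry1 by -0.86 ± 0.21 and Arntl by -0.92 ± 0.24. Title numbers 4, 29 and 30 occur in both tissues and may stand for the same mice, so the tissues may not be independent. Others did not match. Per2 differed by 0.92 ± 0.29 in lung against 0.06 in liver, and Clock by -0.03 ± 0.12 against -0.32. Hlf, Rora, Cry2, Usp2 and Csnk1d, which overlapped in liver on their brightest spot, had the opposite sign in lung. The tissue difference itself was 0.78 for Dbp, with an interaction adjusted p of 0.991, and limma's interaction test called 0 of 22056 genes (0%) over all 12 arrays, 1012 having an unadjusted p under 0.05. No difference described here is thereby shown to be particular to liver.

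Beyond Dbp and Per3, the genes that stood furthest above the controls had mixed roles. Cish, an inhibitor of cytokine and growth hormone signalling, read 3.46, 4.03 and 2.60 with acrylamide against 2.17, 1.701 and 1.14, higher by 1.69 ± 0.43. Mfsd2a, a transporter of lysophospholipids, read 3.88, 3.78 and 3.78 against 1.85, 3.28 and 2.24, higher by 1.35 ± 0.37 with very even acrylamide arrays. Csrnp1, a nuclear protein gene, was higher by 1.35 ± 0.37, and Phlda1, a gene induced by growth factors, by 1.27 ± 0.39. For both, acrylamide 30 lay nearest the controls: Phlda1 read 5.11, 5.60 and 4.10 against 3.41 to 3.89. Foxo4, a forkhead factor downstream of insulin, was higher by 1.32 ± 0.30 and Zfp119a, a zinc finger gene, by 1.58 ± 0.35, with acrylamide 30 highest for both. The other Zfp119a spots, not above background on every array, gave 0.77 and -0.36 with overlap, so its spots disagreed. Clec1a, a lectin receptor gene of endothelium, read -4.11, -4.15 and -3.90 against -5.30, -5.30 and -5.38, higher by 1.27 ± 0.13 (adjusted p = 0.470). This was the smallest error of the 12, at a mean level 2.27 log2 units over the background limit. Cdk1, the mitotic kinase, was higher by 1.59 ± 0.58 and Krtap31-2, a keratin-associated protein gene, by 1.81 ± 0.55, both near background with acrylamide 30 highest. The background limit of acrylamide 30 lay 4.30 log2 units below its 75th percentile. For Cdk1, Krtap31-2, Clec1a and Per3 every control read lower than that, so they met the filter only because acrylamide 30 was higher. A gene as dim in controls that fell could not be named. Pax2, a developmental factor, was higher by 1.75 ± 0.62, but its other spots gave -0.70 and 0.04 with overlap, so its spots disagreed.

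**Figure D3:**
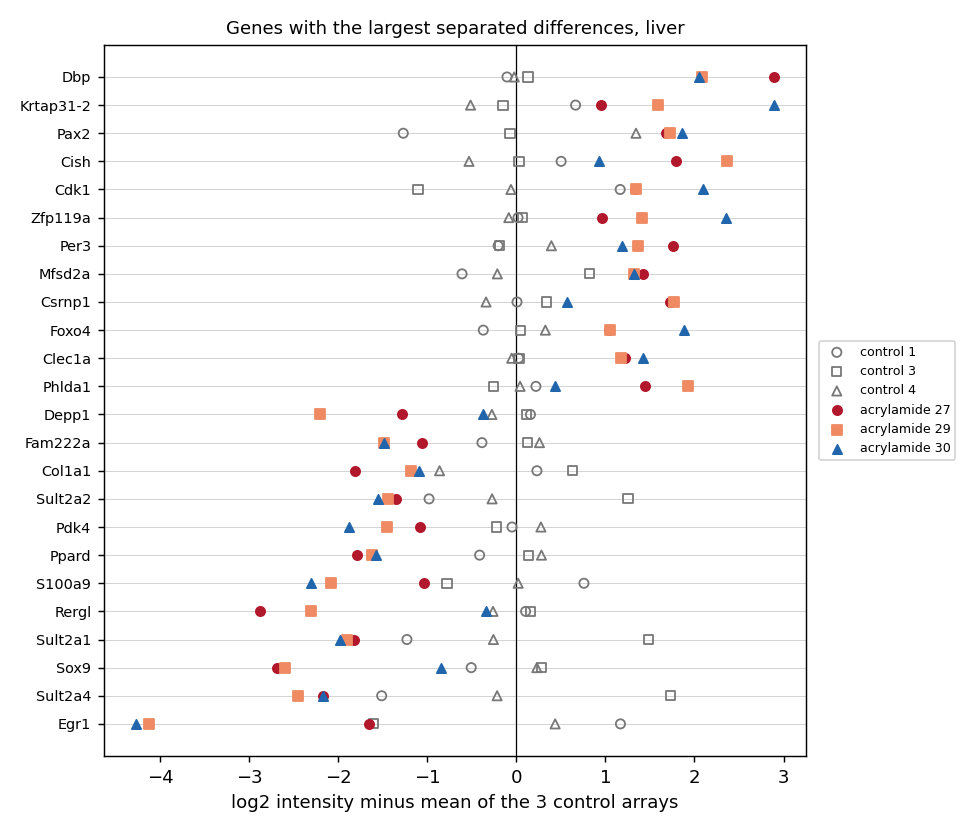
The 12 genes highest and the 12 lowest against controls among those above background on all 6 arrays with separated groups, an unadjusted p under 0.05 and a mean level at least 4-fold over the background limit, predicted genes and clones passed over, each array plotted as log2 intensity minus the mean of the 3 controls. Ppard, Clec1a, Mfsd2a, Pax2 and the Sult2a genes show 3 close acrylamide points. Egr1, Rergl and the controls of Mfsd2a, Pax2 and the Sult2a genes spread by more than 1 log2 unit within a group.

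Among the 12 lowest genes so chosen, Egr1, an immediate early transcription factor, differed most, by -3.35 ± 0.97. Its arrays varied widely, at 0.94, -1.53 and -1.68 with acrylamide and 3.76, 0.99 and 3.03 in controls, acrylamide 27 and control 3 being nearly equal. Myc, another immediate early gene, read 0.87, -1.77 and -3.74 against -3.53 to -2.46 and overlapped (1.58 ± 1.12). Of the 23 genes of that list 1 separated downwards and 0 upwards, where 6.67% and 5.69% of all genes did. Ppard, a nuclear receptor of lipid metabolism, read -0.68, -0.51 and -0.47 against 0.70, 1.24 and 1.39, a difference of -1.66 ± 0.21 (adjusted p = 0.579), from its only spot. It was 1 of 8 genes called when all 12 arrays were fitted together. That fit leaves the group means unchanged and takes its spread partly from the lung arrays. Pdk4, which switches off pyruvate oxidation in fasting, read 0.41, 0.04 and -0.39 against 1.44, 1.26 and 1.76, a difference of -1.47 ± 0.25 (adjusted p = 0.654). Fam222a differed by -1.34 ± 0.23, with -1.86, -2.29 and -2.29 against -1.19, -0.67 and -0.54. Depp1, a gene induced by forkhead factors in fasting, differed by -1.29 ± 0.46, and acrylamide 30, at 3.91, lay just under the lowest control at 4.01. Sox9, a factor of bile duct cells, differed by -2.04 ± 0.54 on its brightest spot and by 0.01 on its other spot. Rergl, a Ras-like gene, differed by -1.84 ± 0.64 through acrylamide 27 and 29 (-6.22 and -5.64), as acrylamide 30 read -3.67 beside controls at -3.60 to -3.17.

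The sulfotransferases Sult2a1, Sult2a2 and Sult2a4, which sulfate steroids and bile acids, stood together. Sult2a1 read 0.45, 0.37 and 0.30 with acrylamide against 1.05, 3.76 and 2.02, a difference of -1.90 ± 0.65. Sult2a2 differed by -1.45 ± 0.55 and Sult2a4 by -2.27 ± 0.77. The acrylamide arrays were close to each other and the controls far apart, control 3 being highest for all 3 genes. These genes are close paralogs, and whether their probes tell them apart was not examined, so they may be 1 measurement. Sult1e1, the estrogen sulfotransferase, read -4.30, -4.05 and -5.98 against -3.12, -3.98 and -3.45, the value of acrylamide 30 not being above background, so that the fitted difference of -1.26 ± 0.54 rests in part on a value under the limit. The list of sulfotransferases and glucuronosyltransferases as a whole had 18 of 27 members higher and a median of 0.14.

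Enzymes that handle acrylamide differed little. Cyp2e1, which makes glycidamide, read 8.34, 8.24 and 8.80 with acrylamide against 8.55, 8.43 and 8.80 (-0.13 ± 0.20), and its second spot gave 0.24. Ephx1, microsomal epoxide hydrolase, differed by 0.20 ± 0.16 and Gclc, the catalytic subunit for glutathione synthesis, by -0.24 ± 0.16, both with overlap. Gstm4, a glutathione transferase, read 1.3, 1.51 and 1.59 against 0.97, 0.63 and 0.91 and was higher by 0.63 ± 0.16 without overlap. Gsta2 differed by 0.62 ± 0.51, with acrylamide 27 at 1.87, below all controls. Of the 22 members tested, 15 were higher and the median was 0.13, and 2 and 1 separated upwards and downwards, against 5.69% and 6.67% of all genes. Without acrylamide 30, 11 of the 22 were higher, the median was 0.0023 and 2 and 6 separated. Without acrylamide 27, 9 separated upwards. Over all genes, 38.9% separated in either direction without acrylamide 30 and 19.7% without acrylamide 27. Xenobiotic cytochrome P450s had 24 of 32 members higher and a median of 0.20. Of them, 5 separated upwards and 1 downwards, where 5.69% and 6.67% of all genes did. In either direction 0 reached an unadjusted p under 0.05 with 1.5-fold, as 1.68% (higher) and 1.97% (lower) of all genes did. Cyp2d22 was higher by 0.55 ± 0.18 without overlap. Cyp1b1 (0.89 ± 0.87, above background on 3 arrays), Cyp2s1 (-0.69 ± 0.66) and Cyp2g1 (0.64 ± 0.33) overlapped.

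Genes of the oxidative stress and DNA damage responses were mixed. Nqo1, a quinone reductase that NRF2 drives, differed by 0.25 ± 0.24 and Hmox1, heme oxygenase, by 0.09 ± 0.18. Of 27 NRF2 and oxidative stress genes 9 were higher, with a median of -0.06, but 14 without control 3, with a median of 0.02. Osgin1, an oxidative stress gene, read 5.13, 5.09 and 4.80 against 6.08, 5.30 and 6.04 (-0.80 ± 0.25), and Sod2, mitochondrial superoxide dismutase, differed by -0.35 ± 0.16. Among 28 p53 targets and damage genes 14 were higher and 14 lower. Mdm2, the p53 ubiquitin ligase, differed by 0.08 ± 0.14. Cdkn1a, the p53-driven cell cycle inhibitor p21, differed by -1.04 ± 0.52, with control 3 at -0.23 against -1.83 and -2.07 in the other controls and -2.65 to -1.96 with acrylamide. Bbc3, a p53-driven gene of cell death, read 2.31, 1.69 and 2.21 against 3.21, 3.46 and 3.18, a difference of -1.21 ± 0.21 (adjusted p = 0.654) beyond either spread. Plk3, a stress kinase, was higher by 1.11 ± 0.40 without overlap, and Gadd45g, a growth arrest gene, by 1.55 ± 0.81 with overlap. Bbc3 and Cdkn1a thus lay on the other side from Plk3 and Gadd45g.

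The series title speaks of epigenetic effects, so enzymes of DNA methylation and chromatin were examined as a list. Of 61 tested, 14 were higher and 47 lower, with a median of -0.10 against -0.02 over all genes. Separation was upwards for 2 (Hdac2 and Tet1) and downwards for 10, where 5.69% and 6.67% of all genes did. Dnmt3b, a de novo DNA methyltransferase, read 0.65, 0.73 and 0.46 with acrylamide against 1.34, 1.72 and 1.73, a difference of -0.98 ± 0.17 (adjusted p = 0.654), and a second spot gave -0.85 without overlap, while another spot, not above background on every array, gave -0.24 with overlap. It was also among the 8 genes called in the fit of all 12 arrays, which takes its spread partly from the lung arrays. Dnmt1, the maintenance methyltransferase, differed by -0.10 ± 0.20 and Dnmt3a by -0.03 ± 0.22, both with overlap. Tet2, which oxidises methylated cytosine, read -0.91, -0.86 and -0.41 against -0.21, 0.27 and -0.07 (-0.72 ± 0.21), its second spot giving -0.38 with overlap. Tet1 was higher by 0.48 ± 0.22 without overlap, though its spots disagreed in direction and acrylamide 27, at 0.8295, nearly equalled control 1 at 0.8294. Tet3 differed by -0.01 ± 0.30. Hdac2, a histone deacetylase, read -3.50, -3.47 and -3.05 against -4.39, -4.30 and -4.24, higher by 0.97 ± 0.17 (adjusted p = 0.654), from a single dim spot. Hdac1 differed by -0.05 ± 0.22. Kdm6b, a demethylase of the mark that Ezh2 writes, differed by -0.73 ± 0.24 without overlap, and Ezh2 by -0.10 ± 0.16. With the mean of each gene's spots in place of the brightest spot, 25 of 61 were higher, the median was -0.06, and 3 and 8 separated upwards and downwards.

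**Figure D4:**
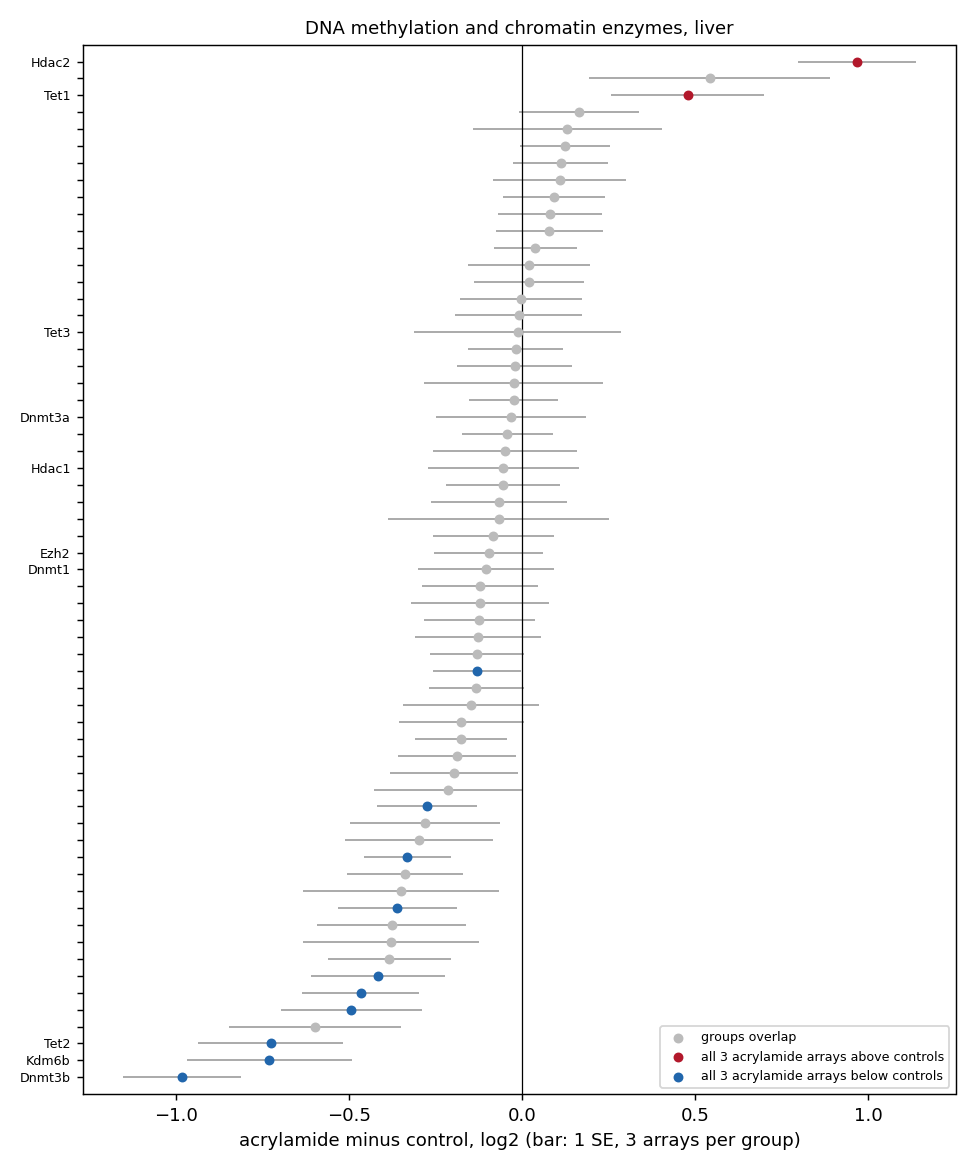
Difference between acrylamide and control (log2, bar 1 SE, 3 arrays per group) for 61 DNA methylation and chromatin enzymes, coloured by whether the groups overlap, with the genes of the text named on the axis. Most points lie left of 0, with Dnmt3b lowest at -0.98 and Hdac2 highest at 0.97.

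Matrix genes were mostly lower. Of 40 genes of the extracellular matrix and its cross-linking 34 were lower, with a median of -0.33, and 13 separated downwards and 1 upwards, where 6.67% and 5.69% of all genes did. Col1a1, the main fibrillar collagen chain, read -1.51, -0.87 and -0.79 with acrylamide against 0.54, 0.94 and -0.56 (-1.36 ± 0.42), and its 19 other spots gave -1.55 to -1.30. Loxl1, a collagen and elastin cross-linking oxidase, read -4.05, -3.47 and -4.03 against -2.38, -2.73 and -2.62 (-1.27 ± 0.21, adjusted p = 0.654). Lox, its relative, differed by -1.28 ± 0.40 with overlap, acrylamide 30 not being above background, and Fbln1, a matrix glycoprotein, by -0.85 ± 0.30 without, its second spot giving -1.04. Markers of stellate cells and fibroblasts, the cells that make matrix, were lower in 15 of 17, with a median of -0.20 and a summed linear level of 120.4 to 145.8 on acrylamide arrays against 150.4 to 167.7 on controls. Dcn, a matrix proteoglycan of these cells, differed by -0.24 ± 0.14 without overlap. Other bright markers of this list did not share the fall clearly. Colec11 differed by -0.001 ± 0.15 with overlap. Ecm1 differed by -0.20 ± 0.17 with overlap, and its second spot gave 0.39 without overlap, so its spots disagreed. Tagln, a smooth muscle gene, read 3.40 and 3.37 on acrylamide 27 and 29 but 4.94 on acrylamide 30 (-0.80 ± 0.46). In whole tissue, fewer cells of a type and less RNA per cell cannot be told apart. Of the 40 matrix genes 28 are at least 4-fold higher in lung; the other 12 had a median of -0.23.

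Genes of Kupffer cells, the macrophages of liver, were higher in 15 of 16, with a median of 0.32, and 10 separated upwards, where 5.69% of all genes did. Cd5l, a macrophage secreted protein, read 4.80, 4.77 and 4.63 against 4.32, 4.04 and 4.54 (0.43 ± 0.17). Csf1r, the receptor for macrophage growth factor, differed by 0.31 ± 0.14, Slc40a1, the iron exporter, by 0.19 ± 0.13 and Clec4f, a Kupffer cell lectin, by 0.21 ± 0.18, the last with overlap. The summed level of the list was 107.5 to 117.0 on acrylamide arrays and 80.1 to 100.9 on controls. Under median scaling 3 rather than 10 members separated, the median staying at 0.32. Alveolar macrophage genes, a list that shares Marco and Mrc1 with this one, were higher in 10 of 13 with a median of 0.23. The Kupffer list median lay 0.42, 0.39 and 0.27 over the control mean on acrylamide 27, 29 and 30. Whether lung RNA has a part in the Kupffer list was not tested.

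B and plasma cell genes were lower in 10 of 11, with a median of -0.49. Of them 1 separated downwards and 0 upwards, where 6.67% and 5.69% of all genes did. By the list median, control 3 lay 0.70 below the control mean and controls 1 and 4 lay 0.33 and 0.36 above it. T and NK cell genes were lower in 15 of 18 (median -0.20), and 4 separated downwards and 0 upwards. S100a9, a neutrophil calcium-binding protein gene, read -0.32, -1.37 and -1.59 against 1.47, -0.06 and 0.74 (-1.81 ± 0.49), whereas 8 of 12 neutrophil genes were lower and the median was -0.11 (5 of 11 and 0.03 without control 1). Erythroid genes were higher in 7 of 10, with a median of 0.46. Hbb-b2, a beta globin, was higher by 0.63 ± 0.30 without overlap, but acrylamide 30, at 3.742, nearly equalled control 4 at 3.738. Hba-a1 (0.30), Alas2 (0.53) and Hbb-b1 (0.69), of the same list, overlapped on their brightest spots. Clec4g, a lectin of sinusoidal endothelium, was higher by 0.43 ± 0.16 without overlap, in a list with 12 of 17 higher and a median of 0.10. Fcgr2b (0.41), Stab2 (0.21) and Gpr182 (0.10), of the same list, overlapped on their brightest spots. Other spots gave 0.83 without overlap for Fcgr2b, and 0.23 and -0.215 with overlap for Stab2. Hepatocyte markers split the acrylamide arrays: their median lay 0.27 and 0.33 below the control mean on acrylamide 27 and 29 and 0.23 above it on acrylamide 30.

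Metabolic lists were mixed. Over all genes tested, 5.69% separated upwards and 6.67% downwards. An unadjusted p under 0.05 with 1.5-fold was reached by 1.68% (higher) and 1.97% (lower). Cholesterol synthesis and uptake genes, including Lss (-0.74 ± 0.34), the lanosterol synthase, and Ggps1 (-0.55 ± 0.27), which makes an isoprenoid, were lower in 24 of 26 with a median of -0.22. Other Lss spots gave -0.66 and -0.37. The 5 other Ggps1 spots gave -0.52 to 0.07, with 3 of them lower, so its spots disagreed. No list member separated or reached an unadjusted p under 0.05 with 1.5-fold. By the list median, acrylamide 27 lay 0.09 above the control mean and acrylamide 29 and 30 lay 0.32 and 0.43 below it. Fasting and glucocorticoid targets had 15 of 26 lower and a median of -0.14, which turned to 0.05 without acrylamide 29. Irs2, an insulin receptor substrate, differed by -0.98 ± 0.40 without overlap, but acrylamide 30, at 2.954, nearly equalled control 1 at 2.959. Fgf21, a fasting hormone of liver, differed by -1.05 ± 0.63 with overlap. Among 34 PPAR alpha and fatty acid oxidation genes 22 were higher, the median was 0.08 (15 and -0.02 without acrylamide 27), and Ppard alone separated downwards. Of 29 lipid synthesis and storage genes 18 were lower, with a median of -0.08, but 6 separated upwards and 1 downwards, and without control 3 the count was 18 higher with a median of 0.13. Cidea, a lipid droplet gene near background, differed by 1.28 ± 0.65 with overlap. Cyp7a1, the rate-limiting enzyme of bile acid synthesis, differed by 0.70 ± 0.46 and Nr0b2, the receptor that represses it, by -0.78 ± 0.50, both with overlap. Hamp, the iron hormone hepcidin, read 6.43, 7.23 and 6.82 against 6.03, 6.18 and 6.06, higher by 0.74 ± 0.22. Ifit2, an interferon-induced gene, was higher by 1.07 ± 0.39 through acrylamide 30 at -1.95 (-3.36 and -3.31 on the others, -3.99 to -3.86 in controls). Male-biased liver genes had a median of 0.25 (15 of 22 higher) and female-biased ones -0.12 (14 of 25 lower, but 10 with a median of 0.04 without acrylamide 30). A1bg, female-biased, was higher by 1.34 ± 0.67 with control 3 at -0.65 against 1.74 and 1.83, and Bcl6, male-biased, differed by -1.31 ± 0.71 with control 3 at 4.28 against 1.38 and 2.70. Proliferation genes were higher in 24 of 34 (median 0.19, or 0.05 without control 3), with Ccnb1, a mitotic cyclin, at 0.73 ± 0.45 and Kif11, a spindle motor, at 0.83 ± 0.39, both with overlap, control 1 being the highest array for Ccnb1. Heat shock genes had a median of -0.07, with Hsp90aa1, a chaperone, at -0.62 ± 0.27 without overlap. For Hsp90aa1, acrylamide 30, at 5.27, nearly equalled control 4 at 5.28, and its second spot gave -0.23 with overlap.

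**Figure D5:**
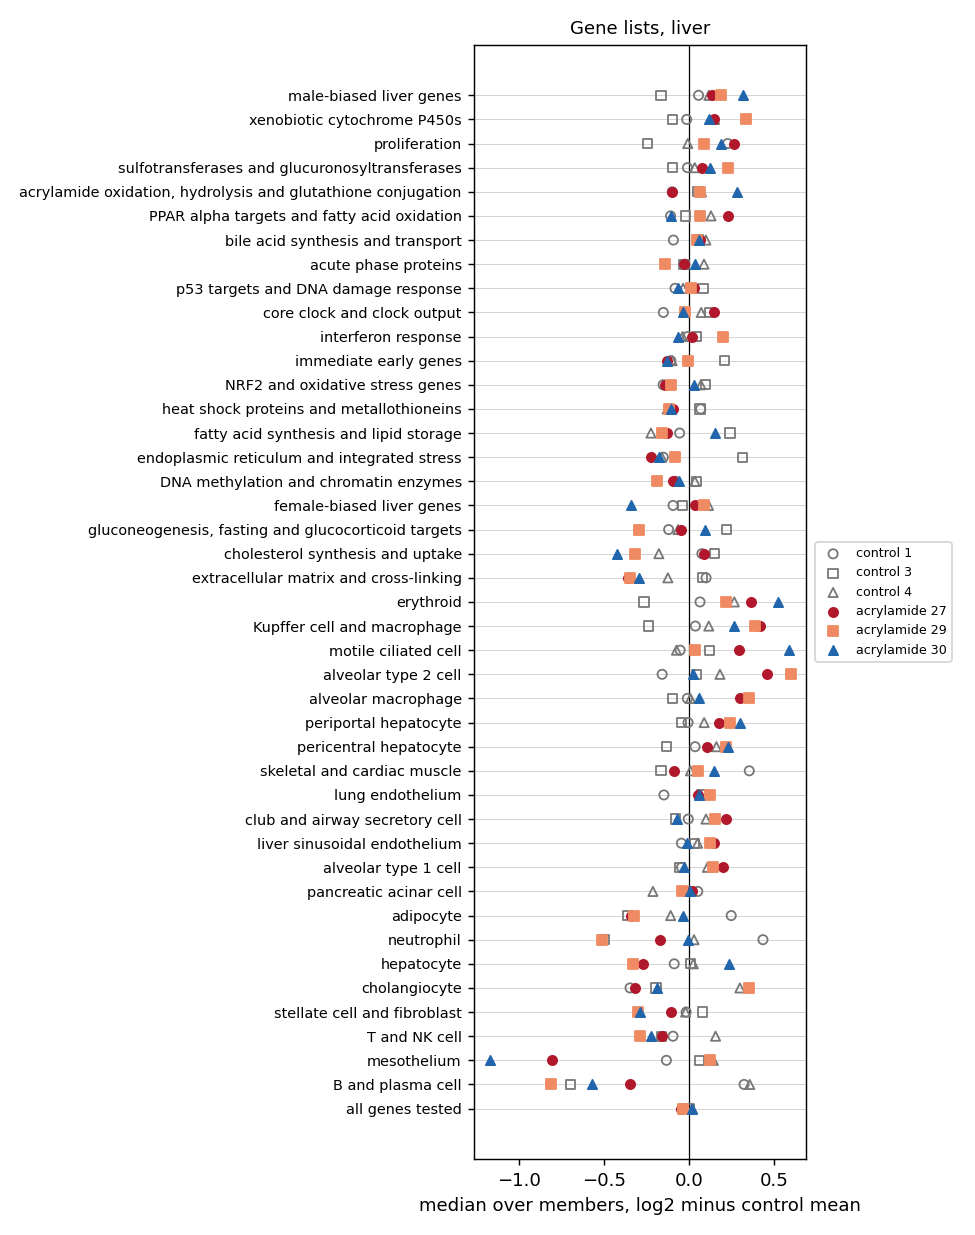
Median over the tested members of 42 gene lists of the level minus the control mean, for each liver array (pathways above, cell types below, all genes tested in the last row; log2 units). Medians of the pathway lists span -0.33 to 0.25 between groups. In the matrix and Kupffer lists all 3 acrylamide arrays lie on one side of all controls. The same holds for other lists, among them stellate cell, periportal hepatocyte (11 of 14 higher, median 0.20), male-biased and sulfotransferase genes. The mesothelium, B cell and hepatocyte lists scatter within a group.

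The 42 lists differed by a median of -0.33 to 0.25 over 21 pathways and -0.49 to 0.46 over 21 cell types. The lists share members, and none of these medians was tested.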

How the data were processed

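RNA from 12 mouse samples was hybridised to one-colour Agilent arrays (Cy3). The authors deposited 1 linear Cy3 intensity per spot and array, and the submitters' processing notes name Agilent Feature Extraction 10.7; whether background was subtracted is not stated. The authors' value table differs from these values by a constant ratio on each array, as comparing both shows, and served as an alternative. Here each array's 75th percentile over non-control spots was subtracted on the log2 scale, external RNA spots left out. A spot counted as above background past the 95th percentile of negative control spots, and 21169 genes above it on at least 3 of the 6 liver arrays were tested from their brightest spot with limma 3.58.1 (lmFit and eBayes, R 4.3.3) and Benjamini-Hochberg adjustment, after a test on simulated data. The tissue difference was limma's interaction term over 12 arrays.

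Spots were named through Entrez and accession matches to the RefSeq table, otherwise by the file's own name (26228 genes). Named genes are the 12 highest and 12 lowest among those above background on all 6 arrays with separated groups, an unadjusted p under 0.05 and mean levels at least 4-fold over the background limit, passing over predicted genes and clones, plus the members furthest from 0 in each list, the clock genes and set markers, a few of which are not reported here. The comparison, its lists and its rules were chosen with earlier results of these data known. Alternatives changed the scaling, filter, spot choice, variance model, slide row and arrays 1 at a time. The number of arrays limits the precision. Title numbers 4, 29 and 30 occur in both tissues. Same-numbered arrays did not deviate together (r = 0.01, -0.02 and -0.13) and were not treated as pairs in the main fit. These correlations over all genes cannot show whether arrays of the same number come from the same mouse.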

Additional observations from a re-analysis of the deposited data

Results flagged for a closer look

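For 9 of the genes named above, every liver array with acrylamide lay on one side of the liver control mean and every lung array with acrylamide on the other side of the lung control mean. The liver difference minus the lung difference, in log2 units, was 1.402 for Phlda1, 1.19 for Hdac2 and 0.59 for Cd5l. It was -2.53 for Sult2a1, -2.10 for Pdk4, -1.60 for Col1a1, -1.50 for Bbc3, -1.42 for Cdkn1a and -0.60 for Dcn. Limma's interaction test gave an adjusted p of 0.692 for Bbc3 and Hdac2 and of 0.991 for the other 7, so a difference between tissues was shown for none of them.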

How the results depend on the processing

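The count of genes with an adjusted p under 0.05 was 0 with each alternative scaling, filter, spot choice and variance model, 8 in 1 fit of all 12 arrays and 0 to 1 when each array was left out (the 1 being Lingo2, without acrylamide 27). Genes with an unadjusted p under 0.05 and 1.5-fold, 771 above, numbered 447 when background had to be passed on all 6 arrays (of 16142 genes), 2181 when every spot was tested (of 46127), 2068 with array weights and 693 to 1893 with each array left out, the highest without acrylamide 30. Genes with separated groups, 2618 above, numbered 6073 over every spot, 5507 within slide row 1 (acrylamide 27 and 30 against controls 1 and 3) and 3701 to 8206 with each array left out, the last again without acrylamide 30; fewer arrays per group separate more easily. Tissue by treatment called 0 genes with the replicate block (title number), 0 with no filter and 0 above background on all 12 arrays. Keeping external RNA spots in the percentile, an alternative chosen after seeing the data, gave 785 and 2578 genes in place of 771 and 2618.

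Of 840 alternative medians of the 42 gene lists, 42 moved by more than the spread between replicates. Of 2026 alternative differences of 103 named genes, 42 changed sign, in 17 genes whose groups overlapped on their brightest spot except Tet1; the causes were not tested. In log2 units these were as follows. Within slide row 1 the differences became Npas2 0.00874, Per2 -0.17, Cry2 0.0262, Ciart -0.0505, Usp2 0.20, Cyp2e1 0.0812, Dnmt1 0.0378, Dnmt3a 0.22, Tet3 0.13, Ezh2 0.0209 and Hmox1 -0.000412. With the mean of a gene's spots the differences became Rora 0.0826, Csnk1d 0.27, Usp2 0.44, Cyp2e1 0.0557, Dnmt3a 0.0639, Tet1 -0.18 and Tet3 0.0427. Under quantile scaling the differences became Cyp2e1 0.0161 and Tet3 0.0138. With array weights that of Hdac1 became 0.18. With each array left out the ranges were Npas2 -0.50 to 0.10, Per1 -0.36 to 1.496, Per2 -0.16 to 0.29, Cry2 -0.23 to 0.0111, Ciart -0.17 to 0.35, Usp2 -0.26 to 0.10, Dnmt3a -0.17 to 0.14, Tet3 -0.20 to 0.25, Hdac1 -0.17 to 0.13, Ezh2 -0.19 to 0.0236, Mdm2 -0.00774 to 0.14 and Hmox1 -0.0116 to 0.26. Dim spots limit what acrylamide 30 can show, since its background limit was the highest.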

Other observations

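Some spots of different genes had nearly the same profile over the 6 liver arrays while other spots of the same genes were far dimmer. The Serpinb8 spot read 4.78, 4.75 and 4.95 on controls 1, 3 and 4 and 6.16, 5.98 and 4.75 on acrylamide 27, 29 and 30. In all, 96 spots of 68 genes followed its centred profile within 0.15 log2 units (root mean square). Of the 37 genes among them with another spot, 34 had a brightest other spot at least 8-fold dimmer, by a median of 8.36 log2 units (-8.36). The Shc4 spot stood for 15 such spots and the Slc8a3 spot for 45, with 4 of 5 and 16 of 17 genes at least 8-fold dimmer elsewhere. For all 3 profiles acrylamide 27 and 29 lay together and apart from acrylamide 30. The spots were picked with their values known, and what they measure was not tested.

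Over all 771 genes with an unadjusted p under 0.05 and 1.5-fold, 67 had another spot above background on all 6 arrays. For 57 of these (85.1%) every spot so far above background differed in the same direction. Over all 5342 genes with such a spot the share was 53.4%. The 771 genes were picked by the size of their difference on these same arrays, and a large difference makes agreement between spots more likely. The higher share is therefore no support for a difference beyond these arrays.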
